A study of Zea mays with 18 samples.

Results

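The genes described here are those of carotenoid synthesis and cleavage, followed in the third leaf of the maize (Zea mays) hybrid An'nong 591 after heat stress. They were chosen by name, as 10 of the 39471 genes in the deposited table: the phytoene synthases PSY1 and psy2, the desaturases pds1 and zds1, the carotenoid isomerase CRTISO1, the lycopene cyclases lcyE and lcyB, the hydroxylase crtRB1, the epoxidase zep1 and the cleavage dioxygenase CCD1. RNA was sequenced from hybrid seedlings kept at 42 °C by day and 35 °C by night for 2 days (F1) and from hybrid seedlings that stayed at 28 °C by day and 23 °C by night (CF1), with 3 biological replicates in each group. All seedlings had 16 h of light and 8 h of dark, and the hybrid comes from 1 cross, so the values hold for a single genotype, leaf and time point. Whether a replicate was 1 plant or a pool is not given in the sources used here. The parental lines were not analysed here.

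Carotenoids are plastid pigments that harvest light and protect the photosynthetic apparatus from excess light and heat. Phytoene synthase joins geranylgeranyl diphosphate units into phytoene, desaturases and isomerases turn phytoene into lycopene, and lycopene cyclases close rings at its ends. Rings made by the ε-cyclase together with the β-cyclase lead to lutein, while the β-cyclase alone leads to β-carotene, zeaxanthin, violaxanthin and, after cleavage, to the hormone abscisic acid.

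Each library had between 14325790 and 14643512 counts on genes in F1 and between 12266758 and 14246363 in CF1. The leaf identity was checked with 11 genes of C4 photosynthesis, Rubisco and the light-harvesting antenna, whose FPKM summed to between 7776 and 9272 in the F1 libraries and between 41148 and 48956 in the CF1 libraries. All 11 were down-regulated, against 19.9% of all tested genes, and their log2FC lay between -9.29 and -1.79. What part this decrease had in the values of the carotenoid genes was not tested. The 9 seed markers, zeins and an embryo globulin, had an FPKM of at most 0.12 in F1 and 0 in CF1, and 6 of them were at 0 in every library. In a whole leaf, fewer cells of a type and less RNA per cell cannot be told apart.

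FPKM, the count divided by the exonic length of the gene and by the library total, is used here for levels. Fold changes were computed from the counts with edgeR's quasi-likelihood test after TMM scaling, which sets the libraries to a common level over most genes. TMM factors were between 1.30 and 1.33 in F1 and between 0.734 and 0.770 in CF1. The log2FC is the log2 of F1 over CF1, given with its standard error (SE). A gene was called up- or down-regulated where F1 and CF1 differed at least 2-fold and the p adjusted over the 20622 tested genes (Benjamini-Hochberg) did not exceed 0.05. The scaling moved all genes by a similar amount: the median log2FC of all tested genes was 0.05 with TMM factors and 0.85 with library totals alone.

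With TMM factors, transcripts of PSY1, psy2, the ε-cyclase and the epoxidase were lower in heat-treated leaves, and those of a β-carotene hydroxylase were higher. Of the 10 genes, 4 were down-regulated in F1 (PSY1, psy2, lcyE and zep1), against 19.9% of all tested genes, and 1 was up-regulated (crtRB1), against 24.1% of all tested genes. In either direction 44.0% of all tested genes were called, near the share of these 10. With library totals, 2 were down-regulated (PSY1 and lcyE, against 9.21% of all tested genes) and 1 was up-regulated (crtRB1, against 45.0%). Over the 10 genes the log2FC had a median of -0.44 with TMM factors and 0.37 with library totals. The mean FPKM of each of the 10 was 1 or more in F1 and also in CF1, so none passed the filter on low FPKM through 1 group only. Relative to the median gene, below which as many genes lie as above it, 9 of the 10 were lower in F1 with TMM factors. Some were lower by little, such as zds1 (-0.21) and lcyB (-0.23). Library totals gave the same 9, which is no second result, since the scaling moved all genes by a similar amount. After TMM scaling, the F1 range was entirely higher than the CF1 range for 1 of the 10 genes (39.1% of all tested genes) and entirely lower for 7 (36.0% of all tested genes). In deposited FPKM it was entirely higher for 6 (64.3%) and entirely lower for 3 (16.2%).

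**Figure D1:**
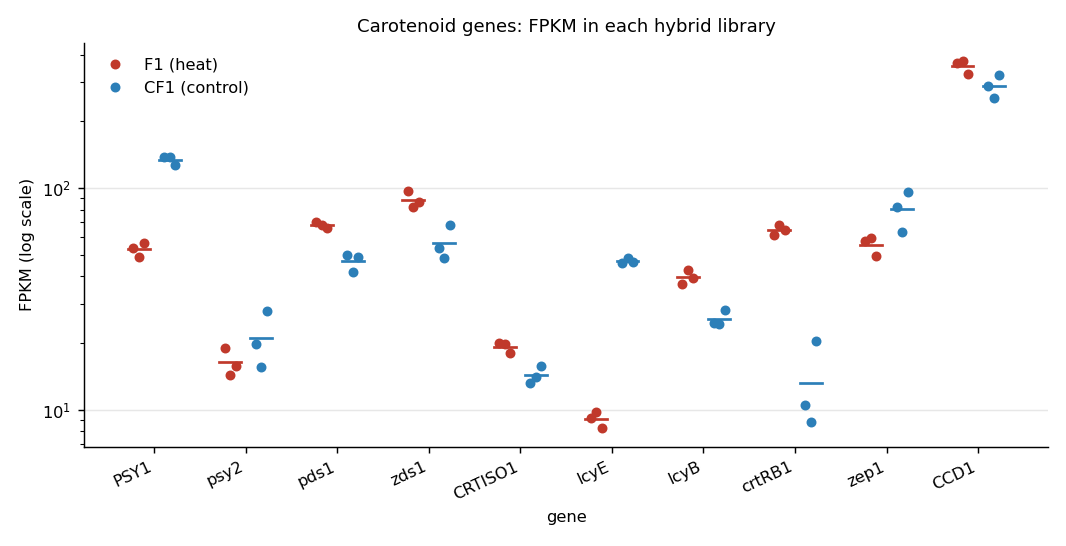
FPKM (log axis) of the 10 carotenoid genes in each hybrid library, with F1 in red to the left of CF1 in blue; points are libraries and bars are group means (n = 3). The F1 libraries of lcyE lie between 8.24 and 9.80 against 45.99 to 48.21 in CF1, whereas those of crtRB1 lie between 61.53 and 68.31 against 8.78 to 20.33.

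Phytoene synthase makes the first committed intermediate and is often the limiting step of the pathway. PSY1 (GRMZM2G300348), known in maize as yellow1 for its part in kernel colour, had an FPKM of 53.44, 48.88 and 56.64 in F1, against 137.69, 137.92 and 127.74 in CF1. The groups were far apart, and replicates differed little. Its log2FC was -2.14 ± 0.11 (SE, edgeR adjusted p = 1.57e-07), a decrease of 4.41-fold. With library totals it was still down-regulated, with a log2FC of -1.34.

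The second phytoene synthase, psy2 (GRMZM2G149317), was expressed at a lower level, with an FPKM of 19.00, 14.31 and 15.82 in F1, against 19.88, 15.61 and 27.93 in CF1. These ranges overlap before scaling, and replicate 3 of CF1 was the highest library. After TMM scaling all F1 libraries lay below all CF1 libraries, with a log2FC of -1.17 ± 0.21 (SE, edgeR adjusted p = 6.27e-04). Leaving out replicate 3 of CF1 (-0.89) ended the call, as did library totals (-0.36). The synthases are similar copies, and the sources used here do not give how reads matching several copies were handled.

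The balance between both synthases can be read within each library, where no scaling enters. The FPKM of PSY1 was 2.81, 3.42 and 3.58 times that of psy2 in the F1 libraries, against 6.93, 8.84 and 4.57 times in the CF1 libraries. PSY1 remained the more abundant copy in all 6 libraries, and the log2 ratio differed by -1.01 (F1 minus CF1). The groups did not overlap (exact two-sided permutation test, p = 0.1, also after adjustment over the 4 ratios tested). This is the smallest p that 3 libraries against 3 allow, so no ratio could reach 0.05. Separate groups were common here: after TMM scaling, F1 was entirely higher for 39.1% of all tested genes and entirely lower for 36.0%. How often ratios of other genes separate was not computed.

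The desaturation and isomerisation genes, which carry phytoene to lycopene, were not called. Phytoene desaturase introduces the first double bonds, and its gene pds1 (GRMZM2G410515) had an FPKM of 70.09, 68.25 and 66.14 in F1, against 49.98, 41.93 and 48.69 in CF1. The ζ-carotene desaturase gene zds1 (GRMZM2G454952) had an FPKM of 97.31, 82.54 and 86.33 in F1, against 53.47, 48.35 and 67.84 in CF1. The isomerase gene CRTISO1 (GRMZM2G108457), whose product sets the double bonds of lycopene in the trans form, had an FPKM of 20.04, 19.72 and 18.00 in F1, against 13.24, 14.06 and 15.75 in CF1. For all 3 genes, each F1 library had a higher deposited FPKM than each CF1 library.

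Their direction depended on the scaling. With TMM factors the log2FCs were -0.26 ± 0.11 for pds1 (SE, edgeR adjusted p = 0.056), -0.15 ± 0.15 for zds1 (SE, edgeR adjusted p = 0.38) and -0.38 ± 0.11 for CRTISO1 (SE, edgeR adjusted p = 0.0127). With library totals they were 0.54, 0.65 and 0.43 (edgeR adjusted p = 7.45e-04, 0.00137 and 0.00422), each under a 2-fold change. With TMM factors these genes stood close to the middle of all genes, at the 39.9th, 43.4th and 36.2nd percentile of the log2FCs. The percentiles with library totals (40.0th, 43.6th and 36.3rd) add nothing to this, since the scaling moved all genes by a similar amount. Without replicate 3 of CF1, where zds1 was highest, its log2FC was 0.025.

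For pds1 and zds1, the RefSeq table lists the same gene model IDs under a neighbouring gene as well, together with another ID that was counted separately. The other ID of the pds1 locus, GRMZM5G815358, had an FPKM of 4.93, 5.19 and 3.89 in F1, against 0.48, 0.39 and 0.72 in CF1. The other ID of the zds1 locus, GRMZM2G454928, had an FPKM of 6.75, 6.89 and 6.90 in F1, against 22.95, 22.14 and 23.35 in CF1. Both moved apart from the IDs chosen here, with log2FCs of 2.34 and -2.53, so that the values of pds1 and zds1 hold for the chosen gene models only.

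Of the lycopene cyclase genes, lcyE was down-regulated and lcyB was not called. Lycopene ε-cyclase, encoded by lcyE (GRMZM2G012966), commits lycopene to the lutein branch. Its FPKM was 9.18, 9.80 and 8.24 in F1, against 45.99, 48.21 and 46.40 in CF1. No library of one group came near those of the other. The log2FC was -3.17 ± 0.11 (SE, edgeR adjusted p = 2.58e-08), the lowest of the 10 genes and at the 3.06th percentile of all tested genes, a decrease of 8.99-fold. It was called with library totals too, at -2.37. This gene model also has a second RefSeq gene under its ID, a neighbour of lcyE, and with 4991 bases its exonic length was the longest of the 10. Reads from the neighbour cannot be told apart from those of lcyE in these counts.

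The other lycopene cyclase, GRMZM5G849107, is called lcyB here for the β-cyclase, which closes β-rings in both branches. RefSeq does not list this name for the ID. This gene had an FPKM of 36.81, 42.79 and 39.40 in F1, against 24.69, 24.33 and 28.27 in CF1. Its log2FC was -0.18 ± 0.11 with TMM factors (SE, edgeR adjusted p = 0.186) and 0.63 with library totals (edgeR adjusted p = 3.57e-04). Both were under a 2-fold change, so it was called in neither fit. All F1 libraries were above all CF1 libraries in deposited FPKM, and the groups overlapped after TMM scaling.

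Within each library the FPKM of lcyE relative to lcyB was 0.249, 0.229 and 0.209 in F1, against 1.86, 1.98 and 1.64 in CF1. The ε-cyclase transcript was below the β-cyclase transcript in every F1 library and above it in every CF1 library. The ratio was lower in F1 by a factor of 7.97, or -2.995 on the log2 scale, with SDs of 0.127 in F1 and 0.139 in CF1 (n = 3 each). The difference was far larger than these SDs, and the groups did not overlap (exact two-sided permutation test, p = 0.1, also after adjustment). It lay between -3.07 and -2.93 with each library left out in turn.

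**Figure D2:**
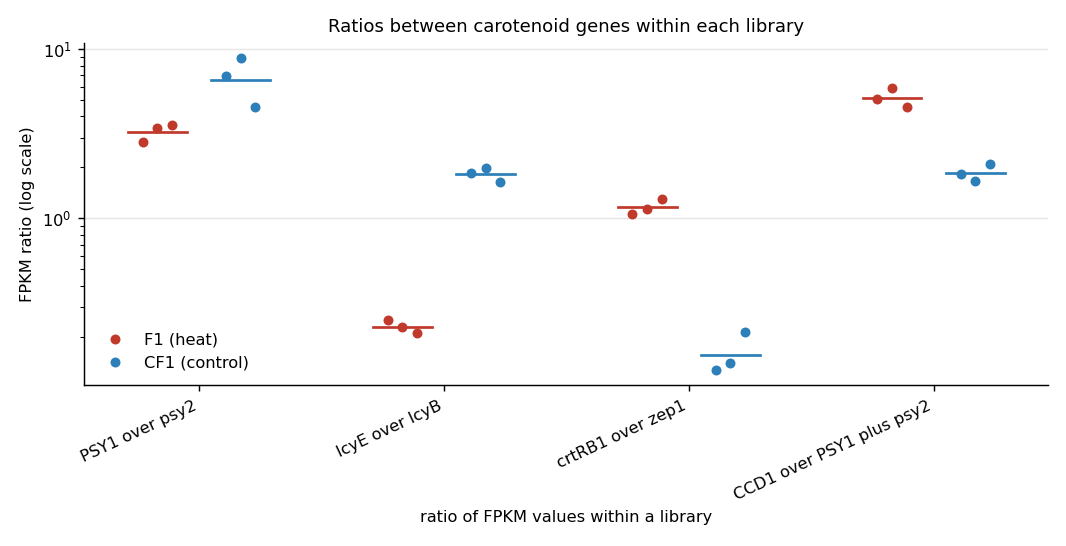
Ratios of FPKM within each library (log axis), which do not depend on scaling between libraries; F1 in red is left of CF1 in blue, points are libraries and bars are geometric means (n = 3). The groups do not overlap in any of the 4 ratios, and lcyE over lcyB averages 0.229 in F1 and 1.82 in CF1. How often ratios of other genes separate was not computed.

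On the β-branch, crtRB1 (GRMZM2G152135) encodes a β-carotene hydroxylase that makes zeaxanthin, and natural alleles of it alter β-carotene in maize kernels. It was the only gene of the 10 that was up-regulated. Its FPKM was 61.53, 68.31 and 64.40 in F1, against 10.46, 8.78 and 20.33 in CF1. Replicate 3 of CF1 was well above the other CF1 libraries but far below all F1 libraries. The log2FC was 1.49 ± 0.27 (SE, edgeR adjusted p = 6.85e-04), an increase of 2.81-fold that lay at the 83.3rd percentile of all tested genes. Leaving out that library gave 1.97, and library totals gave 2.30.

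The epoxidase that turns zeaxanthin into violaxanthin, zep1 (GRMZM2G127139), moved the other way. The name is that of the gene set, since RefSeq does not list it for this ID. Its FPKM was 57.79, 59.86 and 49.33 in F1, against 82.23, 63.27 and 95.75 in CF1. The F1 libraries lay below all CF1 libraries, though replicate 2 of CF1 came close. The log2FC was -1.34 ± 0.17 (SE, edgeR adjusted p = 5.07e-05), and -0.53 with library totals, where the change was under 2-fold.

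Hydroxylase transcripts exceeded epoxidase transcripts in every F1 library and stayed below them in every CF1 library. The FPKM of crtRB1 was 1.06, 1.14 and 1.31 times that of zep1 in F1, against 0.127, 0.139 and 0.212 times in CF1. The ratio was 7.51-fold higher in F1, or 2.91 on the log2 scale, with SDs of 0.150 in F1 and 0.396 in CF1 (n = 3 each). The groups did not overlap (exact two-sided permutation test, p = 0.1, also after adjustment), and the difference lay between 2.76 and 3.13 with each library left out in turn.

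CCD1 (GRMZM2G057243) encodes a carotenoid cleavage dioxygenase that forms volatile apocarotenoids, and in maize extra copies of it at the White cap1 locus make kernels pale. It was the most abundant of the 10 genes per kilobase in both groups. Its FPKM was 368.58, 374.47 and 328.28 in F1, against 289.54, 255.17 and 324.07 in CF1. All F1 libraries were above all CF1 libraries, but replicate 3 of each group nearly met. With TMM factors the log2FC was -0.50 ± 0.14 (SE, edgeR adjusted p = 0.00767), and with library totals it was 0.30 (adjusted p = 0.0465), so that its direction depended on the scaling and neither reached a 2-fold change.

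Relative to the summed FPKM of PSY1 and psy2, however, CCD1 was higher under heat in every library. This ratio was 5.09, 5.93 and 4.53 in F1, against 1.84, 1.66 and 2.08 in CF1. It was 2.78-fold higher in F1, or 1.48 on the log2 scale, with SDs of 0.194 in F1 and 0.163 in CF1 (n = 3 each, exact two-sided permutation test, p = 0.1, also after adjustment).

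**Figure D3:**
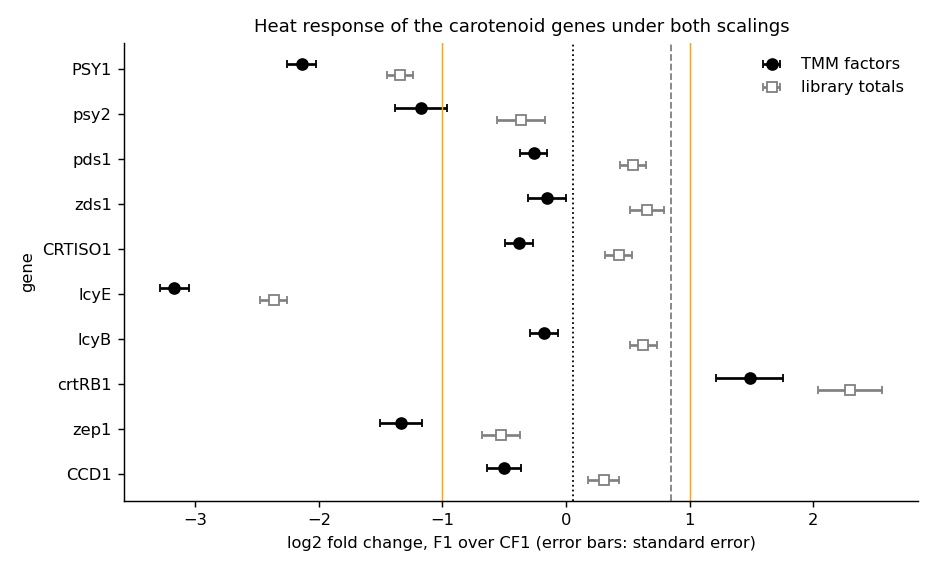
Log2FC of F1 over CF1 for the 10 genes with its standard error, with TMM factors (filled circles) and with library totals (open squares); the dotted and dashed lines mark the median of all tested genes in each fit (0.05 and 0.85), and the orange lines a 2-fold change. PSY1, lcyE and crtRB1 are past the threshold in both fits, psy2 and zep1 only with TMM factors, and pds1, zds1, CRTISO1, lcyB and CCD1 change sign between the fits.

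The order of the levels also differed between the groups. By mean FPKM, CCD1 came first in both groups, with 357 ± 25.1 in F1 and 290 ± 34.5 in CF1 (SD, n = 3 each). In F1 it was followed by zds1 (88.7 ± 7.67), pds1 (68.2 ± 1.98), crtRB1 (64.7 ± 3.40), zep1 (55.7 ± 5.58), PSY1 (53.0 ± 3.90), lcyB (39.7 ± 3.00), CRTISO1 (19.3 ± 1.10), psy2 (16.4 ± 2.39) and lcyE (9.07 ± 0.785). In CF1 the order was PSY1 (134 ± 5.81), zep1 (80.4 ± 16.3), zds1 (56.6 ± 10.1), lcyE (46.9 ± 1.18), pds1 (46.9 ± 4.32), lcyB (25.8 ± 2.18), psy2 (21.1 ± 6.26), CRTISO1 (14.4 ± 1.28) and crtRB1 (13.2 ± 6.24). The ε-cyclase gene thus held the last place in F1, and the hydroxylase gene in CF1. The place of lcyE depends on the exonic length of its gene model, 4991 bases against 1804 for psy2. In F1, the counts of lcyE (667, 716 and 589) were above those of psy2 (499, 378 and 409). This length also enters the percentiles of lcyE and its share of the summed FPKM.
Neighbours whose libraries overlapped in F1 were pds1 and crtRB1, zep1 and PSY1, and CRTISO1 and psy2. In CF1 they were zep1 and zds1, lcyE and pds1, lcyB and psy2, psy2 and CRTISO1, and CRTISO1 and crtRB1.
Ranked among all tested genes of the same library, lcyE lay between the 46.5th and 51.0th percentile of FPKM in F1 and between the 92.7th and 93.6th in CF1. The hydroxylase gene crtRB1 lay between the 92.6th and 93.3rd percentile in F1 and between the 62.9th and 82.3rd in CF1.

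The 9 synthesis genes, without CCD1, had a summed FPKM of 425, 414 and 404 in F1, against 438, 402 and 479 in CF1. These ranges overlap, with means of 415 ± 10.4 in F1 and 440 ± 38.2 in CF1 (SD, n = 3 each, exact two-sided permutation test, p = 0.4). The difference of -24.9 (F1 minus CF1) became -43.5 when replicate 2 of CF1 was left out and -5.395 when replicate 3 was. After TMM scaling the sums were 321, 311 and 311 in F1, against 569, 523 and 652 in CF1, without overlap (p = 0.1 from the same exact test). The difference in the total thus depended on the scaling, which does not enter its make-up.
PSY1 made up 12.8 ± 1.12% of the sum in F1 and 30.8 ± 3.83% in CF1 (SD, n = 3 each). The share of lcyE was 2.19 ± 0.165% in F1 and 10.7 ± 1.16% in CF1, and that of crtRB1 was 15.6 ± 1.04% in F1 and 2.94 ± 1.14% in CF1. Both desaturase genes took larger shares under heat, with 16.4 ± 0.0679% in F1 and 10.7 ± 0.662% in CF1 for pds1, and 21.4 ± 1.49% in F1 and 12.8 ± 1.19% in CF1 for zds1. The share of lcyB was 9.58 ± 0.846% in F1 and 5.86 ± 0.205% in CF1. Shares of 1 sum are not independent of each other, and none was tested.

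**Figure D4:**
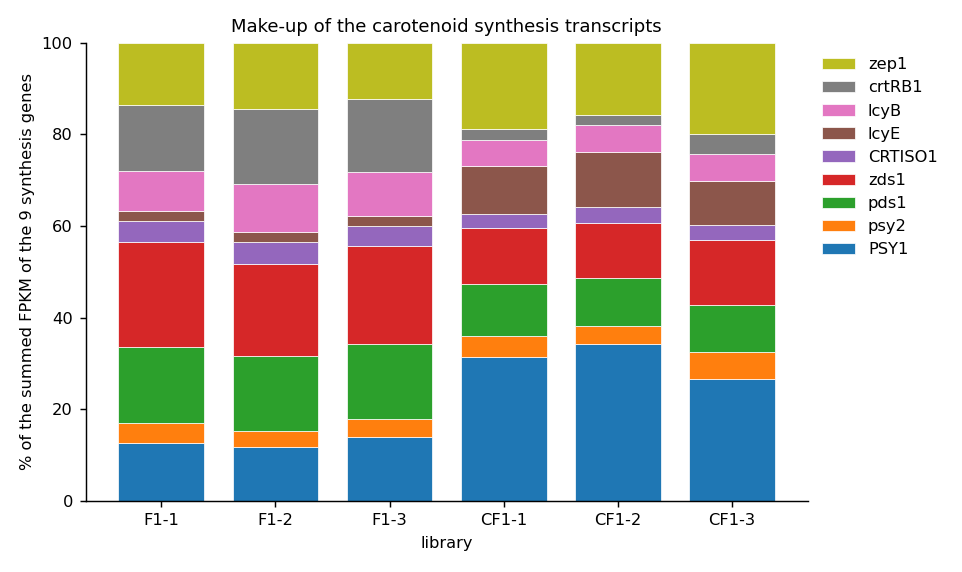
Make-up of the summed FPKM of the 9 synthesis genes in each library, as percent of the sum, with the F1 libraries left of the CF1 libraries. PSY1 takes 12.8% in F1 and 30.8% in CF1 on average, lcyE 2.19% in F1 and 10.7% in CF1, and crtRB1 15.6% in F1 and 2.94% in CF1.

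The coefficient of variation of the FPKM of the 10 genes had a median of 7.46% in F1 and 10.6% in CF1, beside medians of 11.3% in F1 and 15.5% in CF1 over all tested genes. In CF1 it reached 47.3% for crtRB1 and 29.6% for psy2. In deposited FPKM, replicate 3 was the highest CF1 library for 7 of the 10 genes, and replicate 2 the lowest for 7 of the 10. Replicate 3 also had the lowest TMM factor of CF1 (0.734). The shares over all tested genes were not computed, so this is not shown to be particular to the 10 genes.

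Outside the 10 genes, 10 further genes of the pathway could be matched by RefSeq symbol or synonym, and 8 of them passed the filter on low FPKM. None was up-regulated, against 24.1% of all tested genes, and 5 were down-regulated, against 19.9%, with a median log2FC of -1.20 beside 0.05 over all tested genes. With library totals, however, 1 was down-regulated, against 9.21% of all tested genes, and 1 was up-regulated, against 45.0%. Precursors of carotenoids come from the plastid methylerythritol phosphate (MEP) pathway, and 5 of the 8 genes belong to it.
The MEP pathway starts with 1-deoxy-D-xylulose 5-phosphate synthase. Its gene dxs2 (GRMZM2G493395) had an FPKM of 1.45, 0.52 and 0.58 in F1, against 122.23, 51.27 and 150.26 in CF1. It varied widely within CF1 but had only 58, 21 and 23 counts in the F1 libraries. The log2FC was -7.79 ± 0.52 (SE, edgeR adjusted p = 6.75e-07), and -6.98 with library totals, the 1 gene of this list that was still down-regulated in that fit.
The other copy that could be matched, dxs1 (GRMZM2G137151), had an FPKM of 109.69, 75.46 and 81.75 in F1, against 158.96, 193.30 and 131.00 in CF1. Its log2FC was -1.65 ± 0.18 (SE, edgeR adjusted p = 1.75e-05), and -0.85 with library totals.
The next enzyme is the reductoisomerase, and its gene dxr had a mean FPKM of 63.3 in F1 and 76.6 in CF1. Its log2FC was -1.08 ± 0.13 (SE, edgeR adjusted p = 3.91e-05). The groups overlapped in deposited FPKM, with 71.88, 61.74 and 56.30 in F1 against 79.29, 68.80 and 81.83 in CF1, but not after TMM scaling. Hds1, which encodes a later synthase of the MEP pathway, had a mean FPKM of 143 in F1 and 203 in CF1, with a log2FC of -1.31. The reductase gene HDR, the last step, had a log2FC of -0.998 and just missed a 2-fold change, but was called in other settings, for example without replicate 1 of CF1 (-1.03). With library totals neither dxr (-0.27) nor Hds1 (-0.51) was called.

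A second β-carotene hydroxylase gene, ZmcrtRB3 (GRMZM2G164318), was down-regulated, and its difference from crtRB1 was not tested. Its FPKM was 5.72, 6.72 and 6.87 in F1, against 9.08, 10.75 and 9.88 in CF1, without overlap. Its log2FC was -1.42 ± 0.14 (SE, edgeR adjusted p = 1.09e-05), and -0.62 with library totals. The second isomerase gene, CRTISO2, was not called and, like CRTISO1, changed sign with the scaling (-0.49 with TMM factors and 0.31 with library totals).

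Of the cleavage genes, vp14 (GRMZM2G014392) encodes the 9-cis-epoxycarotenoid dioxygenase of abscisic acid synthesis. Its FPKM was 106.99, 103.62 and 66.01 in F1, against 26.83, 11.45 and 52.94 in CF1. All F1 libraries were above all CF1 libraries in FPKM, but the groups overlapped after TMM scaling, with a log2FC of 0.78 ± 0.43 (SE, edgeR adjusted p = 0.129). With each library left out in turn the log2FC lay between 0.39, when this was replicate 2 of CF1 (not called), and 1.49, when it was replicate 3 of CF1 (up-regulated). With library totals it was 1.60 and up-regulated.
CCD7 and CCD8, which act in strigolactone synthesis, failed the filter on low FPKM. CCD7 had 28, 23 and 17 counts in F1, against 1, 3 and 5 in CF1, and it was called when all genes with counts were tested, with a log2FC of 1.97 ± 0.62 (SE, edgeR adjusted p = 0.0133). CCD8 had 0, 1 and 0 counts in F1 and 0, 0 and 1 in CF1, too few for a comparison.

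**Figure D5:**
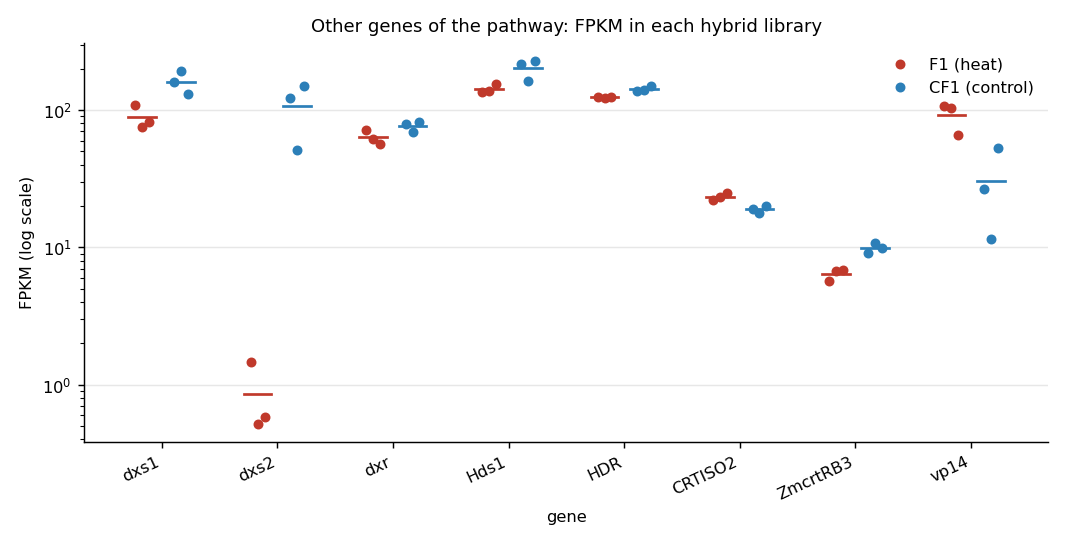
FPKM (log axis) of the 8 tested further genes of the pathway in each hybrid library, with F1 in red to the left of CF1 in blue; points are libraries and bars are group means (n = 3). The F1 libraries of dxs2 lie between 0.52 and 1.45 against 51.27 to 150.26 in CF1, and those of vp14 lie between 66.01 and 106.99 against 11.45 to 52.94.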

How the data were processed

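The authors trimmed the paired-end reads, aligned them with HISAT to B73 RefGen_v3, and HTSeq gave the counts per gene; the submitters' processing notes name HISAT2 2.0.1 and HTSeq 0.6.1. They deposited raw counts per gene, not normalized, and FPKM values, which are counts divided by the exonic length and the library total. The exonic length is a deposited column too. The hybrid's columns were matched to samples by name, and 24 other per-sample columns match no label and were not used.

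Genes whose mean FPKM was 1 or more in F1 or CF1 were tested, 20622 in all, with edgeR 4.0.16 (glmQLFit, glmQLFTest, TMM factors) and Benjamini-Hochberg adjustment. Standard errors are the absolute log2 fold change divided by the square root of F. TMM-scaled FPKM is the FPKM divided by the TMM factor. On simulated counts for these 20622 genes, the fit called 191 of 200 genes changed by 2 on the log2 scale and 15 unchanged genes. Only these 200 genes were changed there, whereas 44.0% of the tested genes were called in F1 against CF1. How the fit and its TMM scaling perform with so many changed genes was not tested. Ratios and sums were compared by exact permutation tests in scipy 1.17.1.

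Alternatives were median-of-ratios factors, library totals, no filter on low FPKM, DESeq2 1.42.0, limma 3.58.1 on log2(TMM-scaled FPKM + 1) and + 0.1, the replicate number as a block, and each library left out. The 10 genes and the lists were chosen with earlier results of these data known. Every one of the 10 genes is named, and of the further pathway genes all that were called; HDR, CRTISO2, vp14, CCD7, CCD8 and the other IDs of the pds1 and zds1 loci were named after their values were seen. The further genes were matched by RefSeq symbol or synonym (assembly Zm-B73-REFERENCE-NAM-5.0, names and neighbours only), and steps without a match were not analysed here. Replicates were separate libraries: a chi-square of their counts averaged 9.57 to 25.8 per gene, where an average of 1 is set by counting error. The value of 25.8 was that of replicates 2 and 3 of CF1, and every other pair was at most at 11.9. The edgeR p-values weigh a difference against the variation between the 3 libraries of each group, estimated with the help of all tested genes. The permutation p-values compare it with the differences after relabelling these libraries.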

Additional observations from a re-analysis of the deposited data

How the results depend on the processing

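All 5 calls among the 10 carotenoid genes were kept, and no further one was called, with median-of-ratios factors, without the filter on low FPKM, by DESeq2 and by limma with either pseudocount. With a library left out the calls of PSY1, lcyE, crtRB1 and zep1 were kept each time, and psy2 lost its call without replicate 3 of CF1, so that 3 to 4 genes were down-regulated. With library totals, 9286 genes were up- and 1899 down-regulated over all genes, 2 of the carotenoid genes remained down-regulated, and the further pathway genes had 1 up- and 1 down-regulated. That list also had 1 up-regulated gene without the filter and between 0 and 1 with a library left out. With library totals the sign turned for pds1 (0.54), zds1 (0.65), CRTISO1 (0.43), lcyB (0.63), CCD1 (0.30) and CRTISO2 (0.31), and the median of all genes shifted by 0.80. With each library left out in turn, zds1 lay between -0.27 and 0.025 (without replicate 3 of CF1). The summed FPKM differed by -24.9 (F1 minus CF1) as deposited, between -43.5 (CF1 replicate 2 left out) and -5.395 (CF1 replicate 3 left out) with 1 library fewer, and by -267 after TMM scaling. The 4 ratios kept their direction with raw counts and without each library, but these checks are weak. For a ratio of single genes, raw counts only add a constant from the exonic lengths, so that check could not turn the direction. Leaving out a library could not turn it either, since the groups did not overlap in any of the 4 ratios.

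The replicate numbers showed no sign of pairing, with correlations of the deviations of same-numbered libraries between -0.0158 and 0.0275. Whether the numbers pair plants across treatments is not given in the sources used here. With the replicate number as a block, 4 of the carotenoid genes were down- and 1 was up-regulated, and over all genes 4903 were up- and 4045 down-regulated.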
